A study of Rattus norvegicus with 4 samples.

Results

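Pre-mRNA splicing factors of 3 kinds were followed in embryonic rat cortical cells cultured on 4 hydrogels: heterogeneous nuclear ribonucleoproteins (hnRNPs), serine/arginine-rich (SR) proteins and neuronal or developmental splicing regulators. The genes were chosen by name: symbols beginning with Hnrnp or with Srsf and a number, annotated pseudogenes left out, and 19 further named regulators. A gene also had to reach 1 FPKM (the read count scaled to gene model length and to the library's counted reads) in at least 1 library. Of 49 genes with these names, 48 met this level, among 12394 of 18755 listed genes that did so. Hnrnph3 was the gene left out, with 0.404 FPKM (SFMA), 0.249 (N-SFMA), 0.508 (L-SFMA) and lastly 0.885 (NL-SFMA). The lowest genes kept were Srsf12, which reached 2.83 FPKM, and Srsf10, which reached 2.96 FPKM.

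Cortical cells were taken from Sprague Dawley rats at embryonic day 16, seeded at 100000 per well and kept for 24 h in Neurobasal medium with 2% B27 and 1% PS. All 4 groups shared this preparation and differed in the hydrogel, named SFMA, N-SFMA, L-SFMA or NL-SFMA in the sample titles, with 5 parallel wells for each. The treatment labels spell the last pair L@SFMA and NL@SFMA. What N and L stand for, and whether wells were pooled, was not stated in the labels. By its title, the series is about hydrogels that carry an adhesion cue between cells and their effect on the regrowth of neural tissue. Each hydrogel had 1 poly(A) RNA library, so no difference below could be set against a spread between replicates and no test was run. Wherever 4 values stand in a row, their order is SFMA, N-SFMA, L-SFMA, NL-SFMA.

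hnRNPs coat nascent transcripts and often repress the exons they bind, whereas SR proteins bind exonic enhancers and recruit the spliceosome. Neurons add tissue-restricted regulators, among them Nova and neuronal Elavl (Hu) proteins, Rbfox1, Rbfox3, Celf4, Ptbp2 and the microexon activator Srrm4. Rbfox2 was grouped with these here. Celf1, Celf2, Mbnl1 and Mbnl2 were grouped as broadly expressed or developmental. In the developing cortex, progenitors carry Ptbp1. This protein represses an exon of Ptbp2, and the transcript made without that exon is degraded, so that Ptbp2 protein appears as Ptbp1 declines in new neurons. The values here are read counts per gene, and use of single exons was not analysed here.

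Library sizes were 14172205 to 17553098 counted reads. Markers of neurons summed to 2606 FPKM (SFMA), 3551 (N-SFMA), 2825 (L-SFMA) and lastly 2691 (NL-SFMA), with all 8 detected in each library. Markers of radial glia, the cortical progenitors, summed to 1501, 673, 662 and 754 FPKM in the same order, and 6 markers of cycling cells to 371, 226, 215 and 218 FPKM. The radial glia sum was mostly Vim (1088, 535, 486 and 633 FPKM). All 8 radial glia markers lay below SFMA on N-SFMA and NL-SFMA. On L-SFMA 6 did, and Hes5 (0.725 in log2) and Nes (0.06) lay above. The neuron sum was mostly Tubb3 (1882, 2602, 1957 and 1659 FPKM). In log2 against SFMA, Map2 and Dcx were at 1.94 and 1.95 on NL-SFMA. Snap25 (0.565), Nefl (0.55), Nefm (0.38) and Stmn2 (0.04) lay nearer to SFMA, and Tubb3 (-0.18) and Rbfox3 (-0.48) lay below it. Pcna was the largest part of the cycling sum (222, 124, 112 and 105 FPKM). On NL-SFMA, Mki67 and Top2a were 1.54 and 0.80 higher in log2 than on SFMA. Birc5 (-2.70), Cdk1 (-1.61), Pcna (-1.08) and Ccnb1 (-0.43) were lower there. Endothelial and pericyte markers stayed at or below 1.36 FPKM in sum, with Cdh5 listed at 0 in N-SFMA, and microglial markers at or below 20.4 FPKM, with C1qa listed at 0 in NL-SFMA. Astrocyte markers summed to 39.6 to 101 FPKM, oligodendrocyte lineage markers to 6.30 to 15.2 FPKM and erythroid markers to 69.7 to 546 FPKM, each highest in SFMA. NL-SFMA stood apart in its mitochondrially encoded reads, 5.89% against 2.23% to 2.68% in the other 3 libraries. In bulk RNA, fewer cells of a type and less RNA per cell cannot be told apart.

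The splicing factors were abundant transcripts. Together they held 1.64%, 1.68%, 1.67% and 1.46% of the reads. By level per length, Hnrnpa1 and Hnrnpl ranked 1 and 2 among the 48 genes in every library. Hnrnpa0 ranked 3, 7, 3 and 12, and Hnrnpab 5, 5, 6 and 13. The A/B and D type hnRNPs summed to 2462, 2245, 2104 and 1310 FPKM, so that NL-SFMA was lowest. The 11 neuronal factors summed to 346, 469, 510 and 576 FPKM, so that SFMA was lowest. Of the 48 genes, 22 had their lowest level in NL-SFMA and 15 their highest there. The same was not counted over all genes, so these counts are not shown to be particular to splicing factors.

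**Figure D1:**
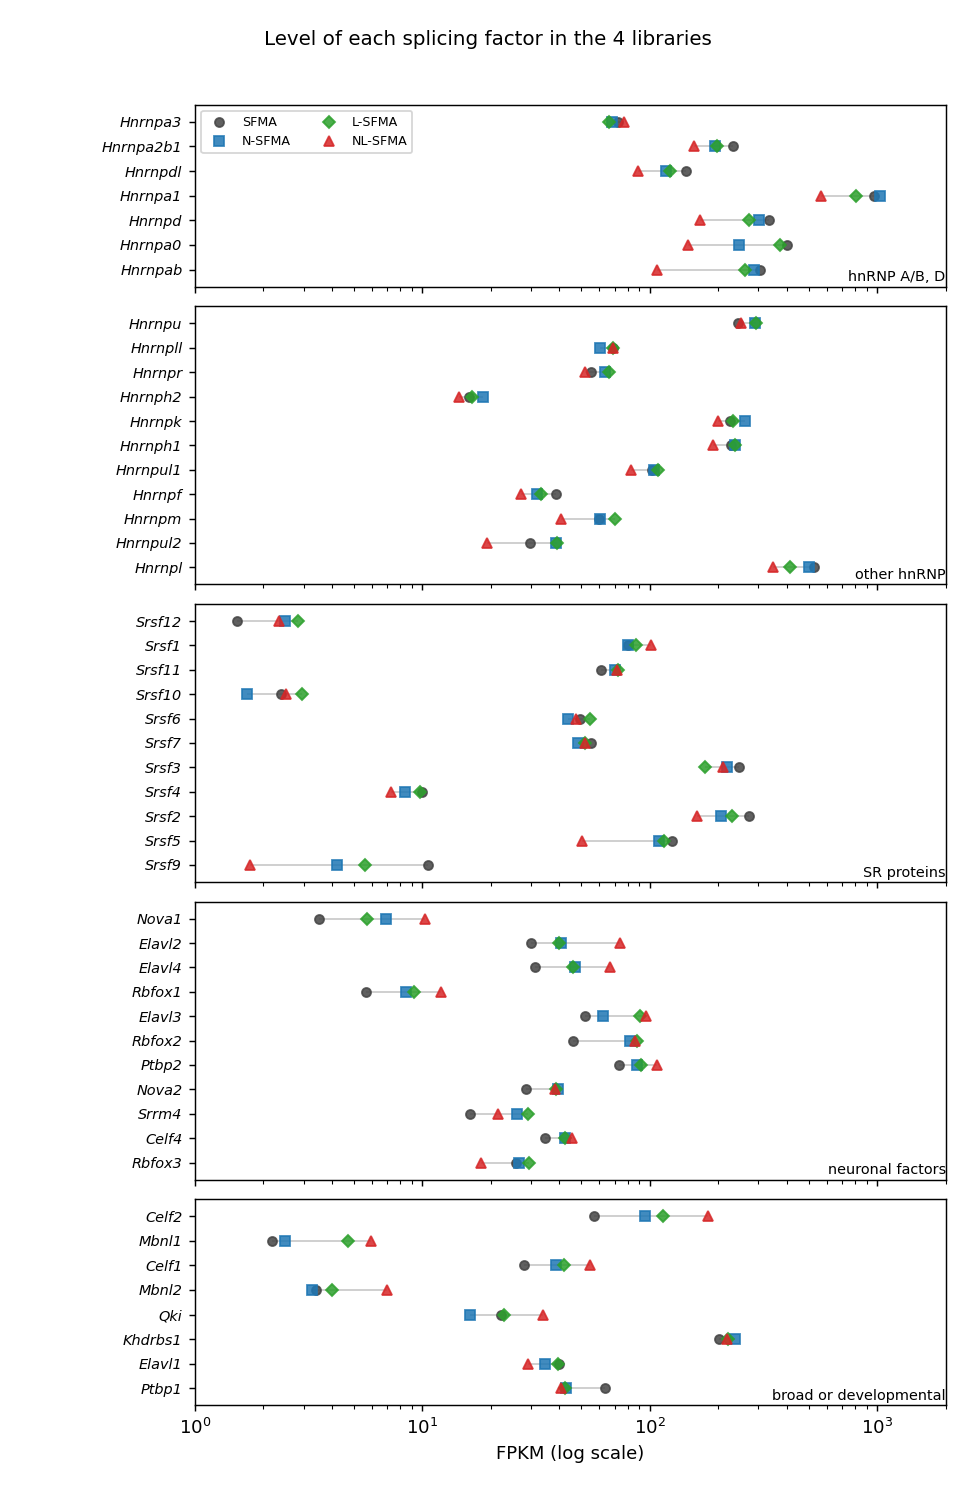
FPKM of each of the 48 splicing factor genes (horizontal axis, log scale) in the 4 hydrogel libraries (1 library per hydrogel, 1 symbol per library), grouped by role; grey lines join the lowest and highest library. NL-SFMA is at the left in 6 of the 7 A/B and D type hnRNPs, and SFMA is at the left in 10 of the 11 neuronal factors.

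Each difference is the log2 ratio of FPKM + 1 in a pair of libraries, which understates the ratio of low genes. A gene was called where this passed 1.5-fold either way (0.585 in log2). Against SFMA, 4 of the 48 genes were called higher and 2 lower on N-SFMA, where 7.24% of all genes tested were called higher and 10.7% lower. On L-SFMA 7 were higher and 1 lower, against 14.8% and 11.1% of all genes. On NL-SFMA 11 were higher and 11 lower, against 21.6% and 29.3% of all genes. As shares of the 48 genes these are 8.33% and 4.17% on N-SFMA, 14.6% and 2.08% on L-SFMA, and 22.9% each way on NL-SFMA. The shares called higher were near those of all genes, and the shares called lower were smaller. Long gene models tended to lie higher off SFMA, as given below, and with the trend on length removed this turned round. The shares higher were then 4.17%, 6.25% and 14.6% of the 48 genes against 5.79%, 8.12% and 19.1% of all genes, and the shares lower 10.4%, 8.33% and 20.8% against 6.78%, 7.44% and 18.9%, on N-SFMA, L-SFMA and NL-SFMA in turn. The median difference of the 48 genes was 0.03, 0.12 and -0.07, and that of all genes tested -0.02, 0.05 and -0.10.

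The direction of the calls differed by role. Of the 29 hnRNP and SR genes, 10 (34.5%) were called lower, near the 29.3% of all genes, and 0 higher on NL-SFMA, with a median of -0.32. Of the 19 named regulators, 11 (57.9%) were higher, against 21.6% of all genes, and 1, Ptbp1, was lower, with a median of 0.86. With the length trend removed the hnRNP and SR genes had 9 (31.0%) lower and 1 higher (median -0.35). The named regulators had 6 (31.6%) higher and 1 lower (median 0.51). Of all genes, 19.1% were then higher and 18.9% lower. TMM scaling changed the NL-SFMA calls to 12 higher and 8 lower, with Ptbp2 added and Hnrnpl, Hnrnpul2 and Ptbp1 lost. On L-SFMA it gave 5 higher and 2 lower, without Rbfox1 and Srsf12 and with Ptbp1 called lower beside Srsf9.

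**Figure D2:**
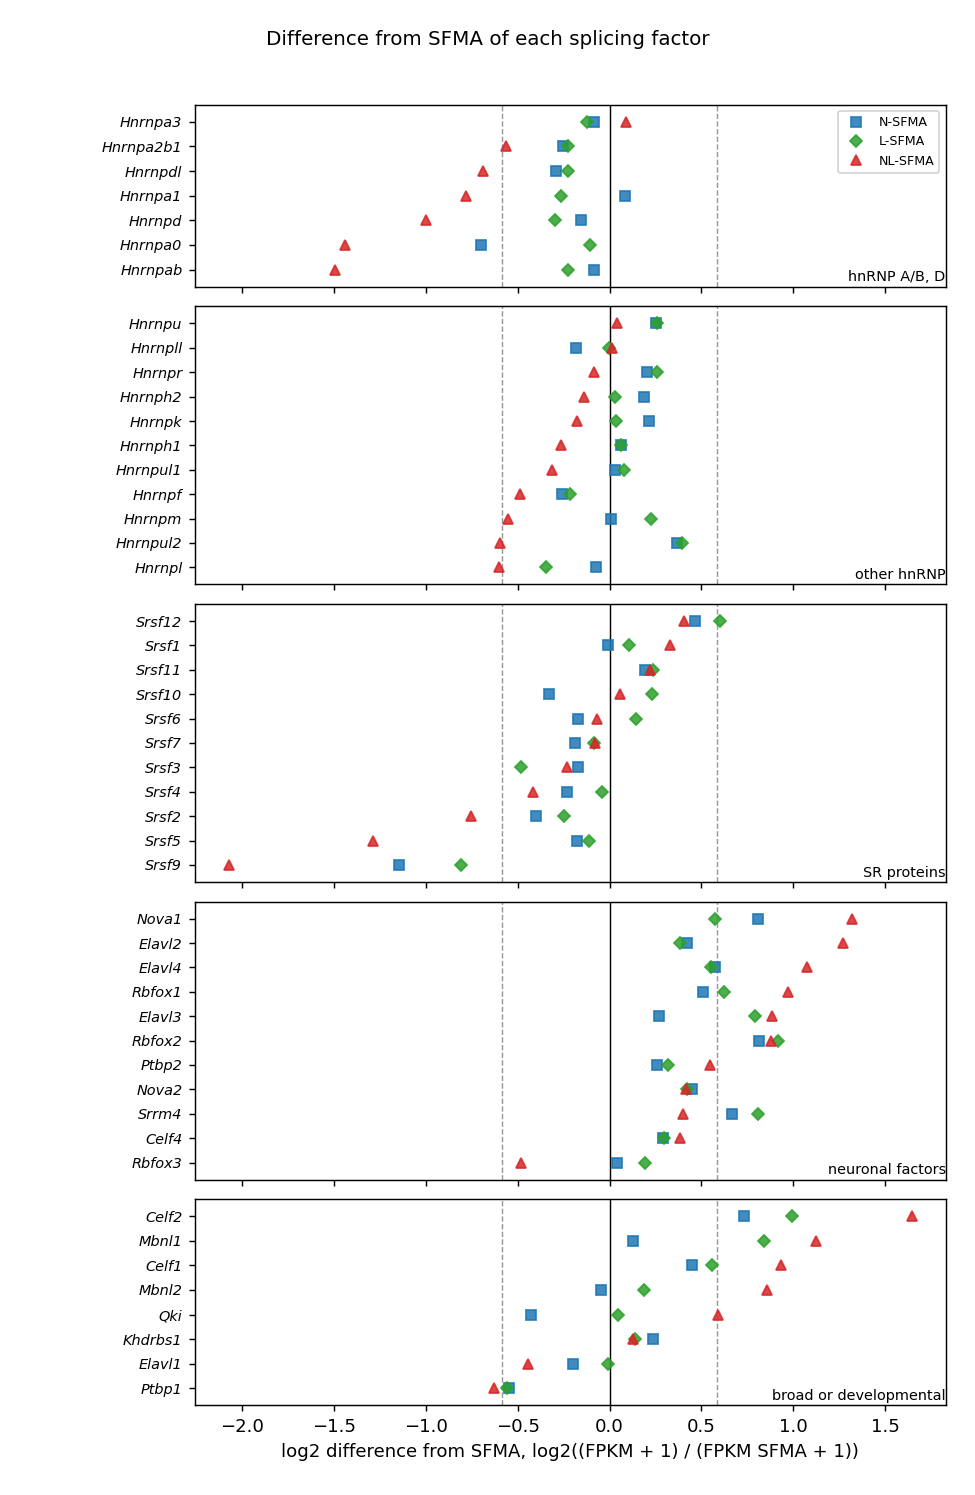
log2 difference from SFMA of each gene on N-SFMA (squares), L-SFMA (diamonds) and NL-SFMA (triangles), 1 library each, by role; dashed lines mark 1.5-fold. Apart from Hnrnpa1 on N-SFMA and Hnrnpa3 on NL-SFMA the A/B and D type hnRNPs lie left of 0, apart from Rbfox3 on NL-SFMA the neuronal factors lie right of it, and Srsf9 (-2.07) and Celf2 (1.64) on NL-SFMA are the extremes.

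Among the A/B and D type hnRNPs, 5 of 7 (71.4%, against 29.3% of all genes) were called lower on NL-SFMA and 0 higher, with a median of -0.78. Without the length trend 3 (42.9%, against 18.9% of all genes) were lower and the median was -0.40. On N-SFMA 1 (14.3%, against 10.7% of all genes) was lower as measured, Hnrnpa0, and on L-SFMA 0 were called. Hnrnpab, an RNA-binding protein linked to transport of transcripts in neurons, was at 305 FPKM (SFMA), 288 (N-SFMA), 261 (L-SFMA) and lastly 108 (NL-SFMA). The first 3 libraries lay close together and NL-SFMA was 2.83-fold below SFMA as a ratio of CPM (counts scaled to the library's total), with a 95% interval of 2.72 to 2.95. This exact interval is conditional on both counts and covers counting error only.

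Hnrnpa0, which binds AU-rich elements, was at 403, 248, 374 and 148 FPKM. It was lower both on N-SFMA (-0.70) and on NL-SFMA (2.73-fold, 2.63 to 2.82), while L-SFMA was near SFMA. Hnrnpd, the AU-rich element decay factor also called AUF1, was at 335, 301, 273 and 167 FPKM, with NL-SFMA 2.01-fold below SFMA (1.94 to 2.08). Its relative Hnrnpdl was at 144, 118, 123 and 88.9 FPKM, and was called lower on NL-SFMA (-0.69). Hnrnpa1, a repressor of exons and the highest of the 48 genes, was at 972, 1029, 809 and 565 FPKM, 1.72-fold lower on NL-SFMA than on SFMA (1.69 to 1.75). Here N-SFMA was the highest library and NL-SFMA the lowest. Hnrnpa2b1, which also carries RNA into neuronal processes, was at 232, 194, 198 and 156 FPKM and just short of a call on NL-SFMA (-0.56). Hnrnpa3 was at 72.2, 68.1, 66.3 and 76.9 FPKM, the NL-SFMA level being the highest of the 4. It has the longest model of the 7 (5828 bases), and with the length trend removed its NL-SFMA difference was -0.40 and all 7 were below 0.

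Hnrnpa0 and Hnrnpab, the A/B type genes with the lowest NL-SFMA differences, are shown with their promoters beside those of Ptbp1 and Ptbp2, which lay in opposite directions. The windows run 250 bases before to 50 after the RefSeq start, from build GRCr8, written 5′ to 3′ along the gene, at chr17:6512879-6513178, plus strand for Hnrnpa0, chr10:36363849-36364148, minus strand for Hnrnpab, chr7:10502908-10503207, minus strand for Ptbp1 and chr2:210558228-210558527, minus strand for Ptbp2. Capitals mark matches to the GC box or the TATA box.
Hnrnpa0: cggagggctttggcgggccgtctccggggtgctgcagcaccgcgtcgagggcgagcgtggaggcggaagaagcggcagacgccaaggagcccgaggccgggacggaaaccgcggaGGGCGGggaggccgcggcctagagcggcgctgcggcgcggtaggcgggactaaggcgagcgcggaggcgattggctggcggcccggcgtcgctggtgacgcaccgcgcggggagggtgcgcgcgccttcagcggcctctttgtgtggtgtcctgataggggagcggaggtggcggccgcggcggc
Hnrnpab: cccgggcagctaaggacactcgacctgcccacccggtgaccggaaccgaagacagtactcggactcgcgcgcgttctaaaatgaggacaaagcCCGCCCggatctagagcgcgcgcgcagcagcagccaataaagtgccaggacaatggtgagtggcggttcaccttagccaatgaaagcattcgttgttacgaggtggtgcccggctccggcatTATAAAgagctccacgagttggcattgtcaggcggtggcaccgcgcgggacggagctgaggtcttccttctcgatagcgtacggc
Ptbp1: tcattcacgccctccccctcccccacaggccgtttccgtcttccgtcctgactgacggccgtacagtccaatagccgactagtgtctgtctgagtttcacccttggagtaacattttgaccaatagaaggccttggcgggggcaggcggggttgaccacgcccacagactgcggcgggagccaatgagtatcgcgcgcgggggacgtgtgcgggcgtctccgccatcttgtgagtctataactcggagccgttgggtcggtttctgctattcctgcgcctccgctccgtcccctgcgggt
Ptbp2: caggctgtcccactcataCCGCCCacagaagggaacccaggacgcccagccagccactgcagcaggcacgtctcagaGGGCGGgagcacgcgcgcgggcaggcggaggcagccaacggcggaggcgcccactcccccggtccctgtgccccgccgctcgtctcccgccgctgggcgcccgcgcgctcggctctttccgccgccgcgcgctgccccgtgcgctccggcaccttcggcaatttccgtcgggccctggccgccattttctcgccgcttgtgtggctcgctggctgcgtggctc

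Exact matches on either strand were sought for the GC box (GGGCGG), the TATA box (TATAAA), an ETS core (CCGGAAG), an NRF1 core (GCATGCGC) and a CRE (TGACGTCA). Of these, Hnrnpa0 held 1 GC box, Hnrnpab 1 GC box and 1 TATA box, Ptbp2 2 GC boxes, and Ptbp1 none. RefSeq windows were found for 43 of the 48 genes (all but Celf2, Celf4, Rbfox2, Rbfox3 and Hnrnpll), with the first window used where a symbol had several. A GC box was in 82.1% of the 28 hnRNP and SR windows, 53.3% of the 15 windows of named regulators and 34.9% of all 27457 windows. The ETS core was in 6 of the 28 (21.4%; Hnrnpd, Hnrnpf, Srsf4, Srsf5, Srsf7 and Srsf11), 0 of the 15 and 9.22% of all windows. The TATA box was in 17.9%, 13.3% and 14.3%, the NRF1 core in 3.57%, 0% and 2.66%, and the CRE in 0%, 0% and 1.91%. Median GC content was 66.5%, 62.0% and 52.3%. The members had to reach 1 FPKM, whereas the windows of all genes were not filtered by level in these libraries. These shares therefore do not compare splicing factors with other expressed genes. These letters are a description of the windows and were not tied to the RNA levels.

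As measured, the other 11 hnRNP genes lay nearer to SFMA. None was called on N-SFMA or L-SFMA, and 2 (18.2%, against 29.3% of all genes) were called lower on NL-SFMA, where the median was -0.26. Without the length trend 4 (36.4%, against 18.9% of all genes) were lower there. The median was then -0.40, as it was for the A/B and D types. Hnrnpul2, a relative of Hnrnpu, was at 29.6 FPKM (SFMA), 38.5 (N-SFMA), 39.2 (L-SFMA) and lastly 19.2 (NL-SFMA). It was thus above SFMA on both N-SFMA and L-SFMA and 1.54-fold below it on NL-SFMA (1.43 to 1.66). Hnrnpl, which binds CA repeats, was at 526, 500, 413 and 347 FPKM, with NL-SFMA 1.52-fold below SFMA (1.48 to 1.55). Both calls were close to the threshold, at -0.60, and neither was called under TMM scaling.

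Hnrnpm was at 59.8, 60.1, 70.2 and 40.5 FPKM, highest on L-SFMA and lowest on NL-SFMA. Hnrnpu, the large nuclear scaffold hnRNP, was at 244, 291, 292 and 251 FPKM, and its NL-SFMA level was within 1.03-fold of SFMA (1.00 to 1.05). Hnrnpk, which binds C-rich RNA, was at 226, 262, 231 and 200 FPKM. Hnrnph1, a G-tract binder, was at 227, 236, 237 and 189 FPKM, and its relatives Hnrnph2 and Hnrnpf ranged from 14.5 to 18.5 and from 27.2 to 38.5 FPKM. The remaining genes were Hnrnpr (51.8 to 66.0 FPKM), Hnrnpul1 (82.2 to 108 FPKM) and Hnrnpll (60.2 to 69.2 FPKM). Rat hnRNP genes have processed copies, and reads from such a copy cannot always be told from those of its parent, so these levels are uncertain to that extent.

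SR proteins were mostly close to SFMA, apart from Srsf9, Srsf5 and Srsf2. Of 11 genes, 3 (27.3%) were called lower on NL-SFMA, 1 on N-SFMA and 1 on L-SFMA (9.09% each), near the 29.3%, 10.7% and 11.1% of all genes, and Srsf12 was the 1 called higher, on L-SFMA. The median was -0.08 on NL-SFMA, near that of all genes. Without the length trend 1 was higher there (9.09%, against 19.1% of all genes), 2 were lower (18.2%, against 18.9%) and the median was -0.04. Srsf9, a small SR protein also called SRp30c, showed the largest difference of the 48 genes downward. It was at 10.5, 4.22, 5.59 and 1.75 FPKM, from 874, 308, 432 and 117 reads. SFMA was highest and NL-SFMA lowest, 6.03-fold below SFMA (4.97 to 7.38).

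Srsf5, also called SRp40, was at 125, 110, 115 and 50.5 FPKM, so that NL-SFMA alone was low, 2.47-fold below SFMA (2.30 to 2.65). Srsf2, the nuclear speckle protein SC35, was at 272, 206, 230 and 161 FPKM, with NL-SFMA 1.69-fold below SFMA (1.62 to 1.76). In the other direction, Srsf1, the prototype SR protein, was at 80.5, 80.2, 86.8 and 102 FPKM, with NL-SFMA 1.26-fold above SFMA (1.22 to 1.30) and not called. Srsf3, the smallest SR protein, was at 246, 218, 175 and 209 FPKM, lowest on L-SFMA. Srsf6 (43.7 to 54.7 FPKM), Srsf7 (48.2 to 55.1 FPKM), Srsf11 (61.2 to 72.5 FPKM) and Srsf4 (7.26 to 10 FPKM) were not called either. The low Srsf10 (106 to 197 reads) and Srsf12 (37 to 64 reads) carried wide counting error. The call of Srsf12 rested on 64 reads in L-SFMA against 37 in SFMA.

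Neuronal splicing factors were higher off SFMA in most cases. All 11 had values above SFMA on N-SFMA and also on L-SFMA, and 10 of 11 did on NL-SFMA, with medians of 0.45, 0.55 and 0.88 in turn. Of all 12394 genes tested, 5924, 6670 and 5633 lay above SFMA in the same order. Calls were fewer, 3 of 11 on N-SFMA (Nova1, Rbfox2 and Srrm4), 4 on L-SFMA (Elavl3, Rbfox1, Rbfox2 and Srrm4) and 6 on NL-SFMA, and none was called lower. These are 27.3%, 36.4% and 54.5%, against 7.24%, 14.8% and 21.6% of all genes. With the length trend removed the calls were 1 on N-SFMA (Nova1), 1 on L-SFMA (Elavl3) and 4 on NL-SFMA, with medians of 0.37, 0.23 and 0.51. Those shares are 9.09%, 9.09% and 36.4%, against 5.79%, 8.12% and 19.1% of all genes. All 11 then stayed above 0 on N-SFMA and on L-SFMA, while on NL-SFMA 9 were above 0 and 2 below. Nova1, which with Nova2 controls synaptic exons, was at 3.51 FPKM (SFMA), 6.90 (N-SFMA), 5.72 (L-SFMA) and lastly 10.2 (NL-SFMA). NL-SFMA was 2.92-fold above SFMA (2.54 to 3.37). Nova2 was at 28.5, 39.4, 38.5 and 38.4 FPKM, so the 3 other libraries were alike and above SFMA by less than 1.5-fold.

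The neuronal Elavl genes encode Hu proteins, which bind U-rich and AU-rich RNA. Elavl2 was at 30.2, 40.8, 39.7 and 74.2 FPKM, 2.46-fold higher on NL-SFMA than on SFMA (2.34 to 2.59). Elavl4 was at 31.2, 46.9, 46.1 and 66.9 FPKM, 2.15-fold higher on NL-SFMA (2.04 to 2.26). Both showed N-SFMA and L-SFMA side by side, between SFMA and NL-SFMA. Elavl3 was at 51.7, 62.5, 90.1 and 96.3 FPKM, with L-SFMA close to NL-SFMA instead. Their broadly expressed relative Elavl1 (HuR) was at 39.8, 34.5, 39.6 and 29.0 FPKM, lowest on NL-SFMA and not called. Its NL-SFMA difference turned from -0.44 to 0.38 with the length trend removed (model of 1193 bases).

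The 3 Rbfox genes, whose proteins bind the same element beside neuronal exons, did not go together. Rbfox1 was at 5.63 FPKM (SFMA), 8.43 (N-SFMA), 9.22 (L-SFMA) and lastly 12.0 (NL-SFMA), 2.13-fold higher on NL-SFMA than on SFMA (1.92 to 2.37). Rbfox2 was at 46.1, 81.8, 87.9 and 85.8 FPKM, so that the other 3 libraries were similar and all called higher. None of the 3 was called with the length trend removed (0.37, 0.21 and -0.044, on a model of 10486 bases). Rbfox3, which encodes the neuronal nuclear antigen NeuN, was at 25.7, 26.5, 29.5 and 18.1 FPKM. Its NL-SFMA level was the lowest, 1.42-fold below SFMA (1.29 to 1.55) and not called. Srrm4 was at 16.1, 26.2, 29.0 and 21.6 FPKM, highest on L-SFMA, and Celf4 at 34.4, 42.4, 42.5 and 45.3 FPKM.

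Among the broadly expressed or developmental regulators, 5 of 8 (62.5%, against 21.6% of all genes) were called higher and 1 lower on NL-SFMA, with a median of 0.72. With the length trend removed 2 (25.0%, against 19.1% of all genes) were higher, Celf2 and Mbnl1. Then 1 (12.5%, against 18.9%) was lower, and the median was 0.38. Celf2, a regulator of neuronal splicing and 3' end choice, had the largest difference upward. It was at 56.9 FPKM (SFMA), 95.4 (N-SFMA), 114 (L-SFMA) and lastly 180.0 (NL-SFMA), and was called higher in all 3, by 3.16-fold on NL-SFMA (3.07 to 3.26). With the length trend removed Celf2 was at 0.51 on N-SFMA, no longer called, and at 0.60 on L-SFMA, still called. Celf1 was at 28.1, 38.7, 41.9 and 54.5 FPKM, 1.94-fold higher on NL-SFMA (1.85 to 2.03).

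The muscleblind genes Mbnl1 and Mbnl2, whose proteins promote adult exon patterns, were low. Mbnl1 was at 2.18, 2.48, 4.70 and 5.93 FPKM, with SFMA and N-SFMA low and both hydrogels with L high. Mbnl2 was at 3.40, 3.26, 4.02 and 6.96 FPKM, with NL-SFMA alone high. Qki, the quaking gene of progenitors and glia, was at 22.1, 16.2, 22.9 and 33.8 FPKM, lowest on N-SFMA and highest on NL-SFMA, where it was called at 0.59. Khdrbs1 (Sam68), a signal-responsive splicing factor, was at 201, 237, 221 and 219 FPKM and was not called.

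Ptbp1 and Ptbp2 lay in opposite directions on each hydrogel. Ptbp1 was at 63.2 FPKM (SFMA), 42.9 (N-SFMA), 42.6 (L-SFMA) and lastly 40.6 (NL-SFMA), with SFMA high and the other 3 close together. NL-SFMA was 1.56-fold below SFMA (1.48 to 1.63), the only one of the 3 past the threshold (-0.55, -0.56 and -0.63). Ptbp2 was at 73.1, 87.6, 91.3 and 107 FPKM, and its NL-SFMA level, 1.47-fold above SFMA (1.41 to 1.53), was not called.

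A ratio of 2 genes within a library does not depend on how libraries are scaled. The Ptbp2 level was 1.16 times that of Ptbp1 in SFMA (95% counting interval 1.11 to 1.20). It was 2.04 times in N-SFMA (1.94 to 2.14), 2.15 times for L-SFMA (2.05 to 2.25) and 2.64 times for NL-SFMA (2.52 to 2.78). SFMA was below the other 3, and the intervals of N-SFMA and L-SFMA overlapped. The summed level of Elavl2, Elavl3 and Elavl4 was 2.84 (2.64 to 3.06), 4.35 (4.01 to 4.72), 4.44 (4.13 to 4.79) and 8.17 (7.47 to 8.96) times that of Elavl1. The Rbfox1 level relative to Rbfox3 was 0.219 (0.198 to 0.242), 0.319 (0.290 to 0.350), 0.313 (0.287 to 0.341) and 0.663 (0.602 to 0.731). In all 3 ratios N-SFMA and L-SFMA overlapped, between SFMA and NL-SFMA. The radial glia marker sum, mostly Vim, was likewise high in SFMA and lower in the other 3 libraries, and its part in the Ptbp2 to Ptbp1 ratio was not tested.

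**Figure D3:**
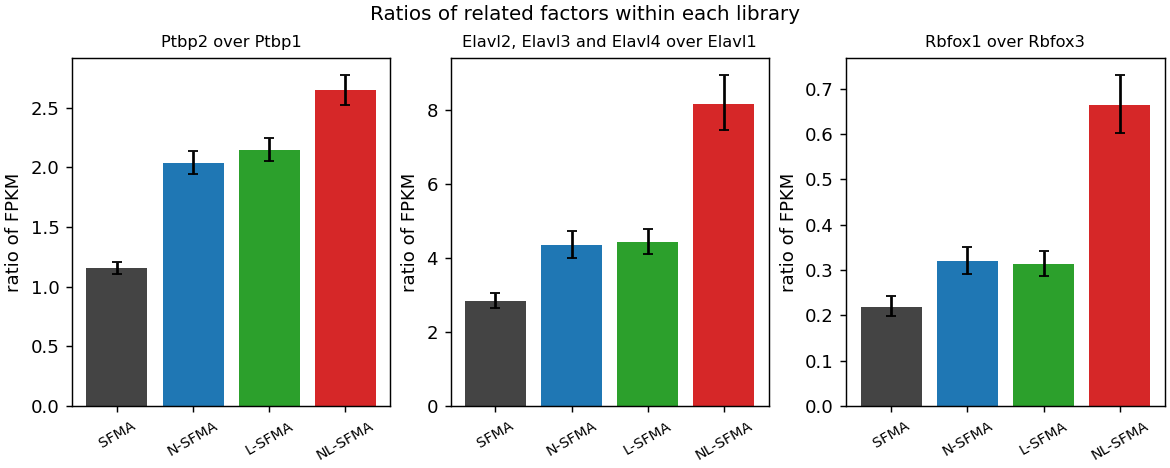
Ratio of FPKM between related factors within each library (vertical axes from 0), for Ptbp2 over Ptbp1, the sum of Elavl2, Elavl3 and Elavl4 over Elavl1, and Rbfox1 over Rbfox3; bars are 1 library each and error bars are 95% counting intervals. SFMA is lowest and NL-SFMA highest in each panel, from 1.16 to 2.64 for Ptbp2 over Ptbp1.

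NL-SFMA was also set against N-SFMA and L-SFMA. These comparisons share the NL-SFMA library. Against N-SFMA, 6 of the 48 genes were called higher and 7 lower, where 12.5% and 18.0% of all genes were. Those higher were Qki (1.02), Mbnl1 (0.99), Celf2 (0.91), Mbnl2 (0.90), Elavl2 (0.85) and Elavl3 (0.62). Those lower were Hnrnpab (-1.41), Srsf5 (-1.11), Hnrnpul2 (-0.96), Srsf9 (-0.93), Hnrnpa1 (-0.86), Hnrnpd (-0.85) and Hnrnpa0 (-0.74).

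Against L-SFMA, 4 were higher and 8 lower, where 7.23% and 20.9% of all genes were. Higher were Elavl2 (0.89), Nova1 (0.74), Mbnl2 (0.66) and Celf2 (0.65). Lower were Hnrnpa0 (-1.33), Hnrnpab (-1.27), Srsf9 (-1.26), Srsf5 (-1.18), Hnrnpul2 (-0.99), Hnrnpm (-0.78), Hnrnpd (-0.71) and Rbfox3 (-0.67). In this pair TMM scaling moved the median of all genes by 0.11 and median-of-ratios scaling by 0.14, and each gave 6 members higher and 6 lower. Under TMM scaling 1432 of 12385 genes were higher and 1991 lower, and under median-of-ratios scaling 1635 and 1825 of 12387.

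Gene model length moved with the differences. Over all genes tested, the NL-SFMA difference from SFMA correlated with log2 length at r = 0.50, and at 0.46 and 0.53 for N-SFMA and L-SFMA. These are correlations across genes, which share libraries and are no replicates. The read-weighted median model length was 2851, 3278, 3438 and 3626 bases. The hnRNP and SR genes had a median model length of 3233 bases and the named regulators 4289, against 2968 for all genes. Within the hnRNP and SR genes r was 0.17 for NL-SFMA, and within the named regulators 0.55.

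Set beside genes of like length, the roles still differed in their median difference on NL-SFMA. Among models of 3000 to 5000 bases, the median was 0.10 for all 3689 genes, -0.17 for 9 hnRNP and SR genes and 0.55 for 9 named regulators. Among models of 5000 to 10000 bases it was 0.57 for 2117 genes, -0.03 for 4 hnRNP and SR genes (Srsf1, Hnrnpa3, Hnrnph2 and Hnrnpm) and 0.97 for 5 named regulators. Among models of 10000 to 20000 bases it was 1.01 for 292 genes and -0.45 for 2 hnRNP and SR genes. Rbfox2, the 1 named regulator in that range, was at 0.88, below the median of all genes there. Among models of 1000 to 2000 bases, which hold Hnrnpa1, Hnrnpd, Srsf2, Srsf5 and Srsf12, the median was -0.71 for 2533 genes and -0.78 for the 5 hnRNP and SR genes. Elavl1, the 1 named regulator of that length, was at -0.44. Among 2000 to 3000 bases the median was -0.34 for 2863 genes, -0.26 for 9 hnRNP and SR genes and 0.13 for 3 named regulators. So the short hnRNP and SR genes as a group lay near other short genes.

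With the trend on length removed, NL-SFMA held 7 of the 48 genes higher (14.6%, against 19.1% of all genes) and 10 lower (20.8%, against 18.9%), and 6 and 5 of the first calls were made again. Those higher both ways were Celf2 (1.20), Elavl2 (1.08), Elavl3 (1.29), Elavl4 (0.86), Mbnl1 (0.65) and Nova1 (1.04). Those lower both ways were Srsf9 (-2.38), Hnrnpab (-1.01), Hnrnpa0 (-0.92), Ptbp1 (-0.83) and Hnrnpul2 (-0.75). Srsf5 (-0.56), Hnrnpd (-0.35), Hnrnpa1 (-0.24), Hnrnpdl (-0.39) and Hnrnpl (-0.20) were then no longer called, Srsf2 was at 0.006 and Rbfox2 at -0.044. Celf1 (0.38), Rbfox1 (0.51), Mbnl2 (0.53) and Qki (0.04) also lost their call. Hnrnpa2b1 (-0.78), Hnrnpm (-0.997), Hnrnph2 (-0.66) and, upward, Srsf12 (1.15) gained one. So did Hnrnpf (-1.54) and Srsf4 (-1.72), on models of 12668 and 18635 bases, where few genes set the trend (292 of 10000 to 20000 bases). Ptbp1 was then also called lower on N-SFMA (-0.67) and L-SFMA (-0.80), and Ptbp2 stood at 0.24 on N-SFMA, at 0.21 on L-SFMA and at 0.56 on NL-SFMA. The ratios were not recomputed with length removed. The models compared in them have 3414 bases (Ptbp2) and 4243 (Ptbp1), 2271 to 4289 (Elavl2, Elavl3 and Elavl4) and 1193 (Elavl1), and 5611 (Rbfox1) and 2879 (Rbfox3). The NL-SFMA differences of Rbfox1 and Rbfox3 were 0.97 and -0.48 as measured, and 0.51 and -0.31 with the trend removed.

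**Figure D4:**
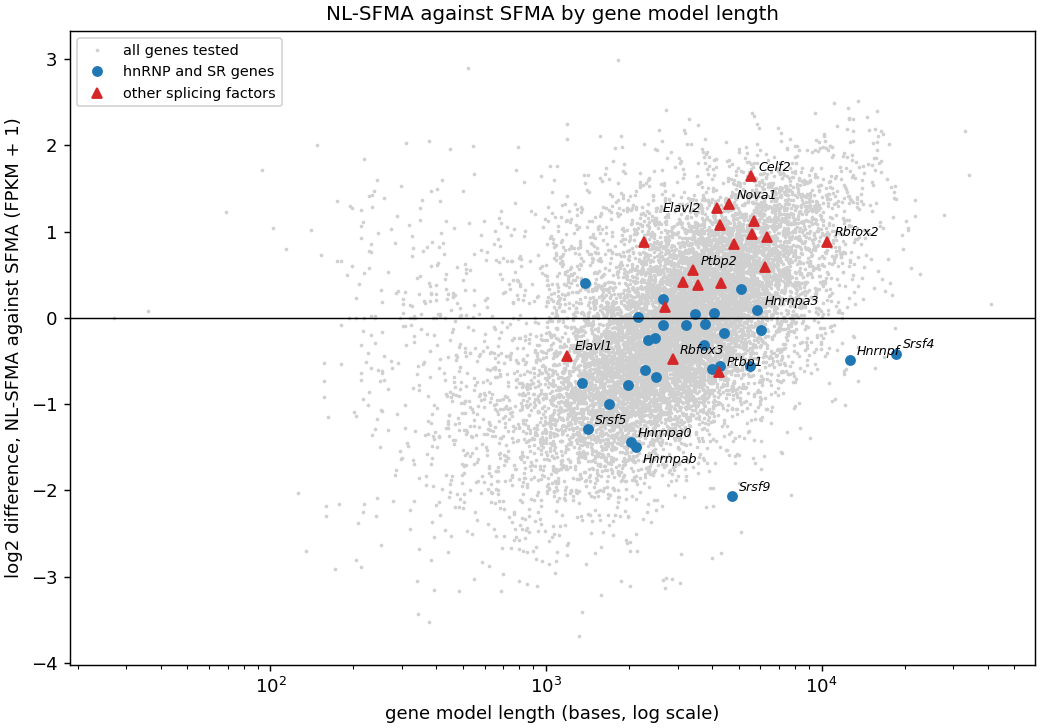
log2 difference of NL-SFMA against SFMA (vertical axis) by gene model length (horizontal axis, log scale) for all 12394 genes tested (grey), the hnRNP and SR genes (circles) and the named regulators (triangles), 1 library per hydrogel. The grey cloud rises with length. Celf2 (1.64) lies in its upper part, and Srsf9 (-2.07) lies near its lower edge at 4730 bases. Of the 19 named regulators 16 lie above 0, and Ptbp1 (-0.63), Rbfox3 (-0.48) and Elavl1 (-0.44) lie below it.

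The rest of the splicing machinery was taken from 4 lists of related genes. Core spliceosome components had a median of -0.73 on NL-SFMA, where 10 of 69 entries (67 symbols) were called higher (14.5%, against 21.6% of all genes) and 38 lower (55.1%, against 29.3%). On N-SFMA the median was -0.18, with 5.80% higher and 27.5% lower (all genes 7.24% and 10.7%). On L-SFMA it was -0.30, with 8.70% higher and 30.4% lower (all genes 14.8% and 11.1%). The lowest were the small ring proteins Lsm4 (-2.82) and Snrpf (-2.46) and the SF3a subunit Sf3a2 (-2.35), with models of 849 to 1755 bases. The highest were the large U5 proteins Prpf8 (1.65) and Snrnp200 (1.36) and the helicase Aqr (1.06), with models of 4866 to 7275 bases. With the length trend removed the NL-SFMA median was -0.35, with 7 higher (10.1%, against 19.1% of all genes) and 28 lower (40.6%, against 18.9%).

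Kinases of SR proteins and SR-related genes had a median of 0.01 on NL-SFMA, with 8 of 25 higher (32.0%, against 21.6% of all genes) and 5 lower (20%, against 29.3%). Only 1, Son, was higher once length was removed, and 5 were lower. The speckle scaffold genes Son (15.8, 30.3, 33.4 and 50.4 FPKM) and Srrm2 (32.7, 60.6, 66.7 and 89.4 FPKM) and the kinase Dyrk1a (0.98) were the highest, and stood at 0.64, 0.51 and 0.43 with the length trend removed. Scaf1 (-0.87), Acin1 (-0.76) and Rsrc2 (-0.65) were the lowest. Other RNA-binding regulators had a median of -0.16 on NL-SFMA, with 4 of 34 higher (11.8%, against 21.6% of all genes) and 8 lower (23.5%, against 29.3%). Once length was removed 6 were higher (17.6%, against 19.1% of all genes) and 4 lower (11.8%, against 18.9%). Here Fmr1 (1.04), Ptbp3 (1.03) and Matr3 (0.91) were the highest and the poly(C)-binding Pcbp4 (-1.44), the progenitor protein Msi1 (-1.39) and Raly (-1.38) the lowest. Ptbp3, the third Ptbp paralog, was at 2.91, 3.12, 4.00 and 7.02 FPKM, and was not called with the length trend removed (0.50).

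Nonsense-mediated decay genes were included because many SR and hnRNP transcripts carry alternative exons that send them to this pathway. Their median on NL-SFMA was -0.25, with 3 of 15 higher (20%, near the 21.6% of all genes) and 6 lower (40.0%, against 29.3%). Without the length trend 1 was higher (6.67%, against 19.1% of all genes) and 4 lower (26.7%, against 18.9%). The kinase Smg1 was at 2.26, 6.08, 8.93 and 15.1 FPKM (2.31 on NL-SFMA), and Smg6 (0.67) was also called higher. The exon junction components Magoh (-2.0) and Rbm8a (-1.36) and the Smg1 partner Smg9 (-1.27) were the lowest. With the length trend removed, Smg1 was at 1.26 and Magoh at -1.13.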

How the data were processed

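RNA of 4 libraries, 1 per hydrogel, was analysed. Per the file headers, the authors deposited 2 values for each of 18755 genes, a read count without normalization and an FPKM. The submitters' processing notes name HISAT2, without a version, and HTSeq 0.13.5, and the builds mRatBN7.2 and GRCh38 with no role for either. For strand, filters and reads shared between genes, the setting is not given in the sources. The deposited FPKM is the count over gene model length and summed count: lengths recovered from both columns were whole to within 1e-06 bases. Libraries were grouped by title.

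The 5 comparisons used log2(FPKM + 1) of genes that reached 1 FPKM in any library, with calls at 1.5-fold. CPM ratios carry exact (Clopper-Pearson) 95% intervals on the deposited counts, for counting error only, since no molecular identifiers are described; 3 counts equal 0.171 to 0.212 CPM. The trend on log2 gene model length was removed by lowess (span 0.3, statsmodels 0.14.6). Other alternatives were a pseudocount of 0.1, a minimum of 5 FPKM or none, 2-fold calls, and scaling by TMM (edgeR 4.0.16), median of ratios (DESeq2 1.42.0) or counts without mitochondrially encoded genes. Calls, trend removal and intervals were checked on simulated counts with counting error alone and, for trend removal, a straight trend on log2 length. That check holds no spread between cultures or libraries, so it says nothing of either. Named genes are every member by role, and 3 at each end of related lists on NL-SFMA against SFMA with at least 5 FPKM; marker lists are given as sums. The members and lists were chosen with earlier results of these data known. No model test was run. The symbols Hnrnpc and Srsf8 are not analysed here. One gene that the naming rule gives for a related list is not reported here.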

Additional observations from a re-analysis of the deposited data

Results flagged for a closer look

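Entries annotated as pseudogenes lie outside the gene set, and 2 of them held signal in every library. Hnrnpr-ps2 was at 21.0 FPKM (SFMA), 22.9 (N-SFMA), 17.7 (L-SFMA) and lastly 20.6 (NL-SFMA), or 522 to 663 reads. Hnrnpk-ps1 was at 6.72, 6.77, 6.15 and 6.14 FPKM in the same order, or 110 to 149 reads. Both are above the 3 counts that a count of 0 allows. The parent genes were at 51.8 to 66.0 FPKM (Hnrnpr) and 200 to 262 FPKM (Hnrnpk), and whether the pseudogene entries hold reads of their parents was not tested. Hnrnpa1-ps20 and Srsf5-ps1 had 0 to 5 reads.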

How the results depend on the processing

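With 1 library per hydrogel, no replicate could be left out. No paired analysis was possible because each group has 1 library. Calls at 2-fold, a stricter rule by construction, left 0 members higher and 1 lower on N-SFMA against SFMA, 0 and 0 on L-SFMA, 5 and 5 on NL-SFMA, 1 and 2 for NL-SFMA against N-SFMA, and 0 and 4 for NL-SFMA against L-SFMA. Of all 12394 genes tested, 106 were then higher and 328 lower on N-SFMA, 412 and 377 on L-SFMA, and 1251 and 1872 on NL-SFMA. For NL-SFMA against N-SFMA these were 267 and 692, and against L-SFMA 108 and 851. Without the length trend, 2 members were higher and 5 lower on N-SFMA, 3 and 4 on L-SFMA, and 7 were higher on NL-SFMA. On NL-SFMA the called Srsf2 (0.006) and Rbfox2 (-0.044) then changed sign, as did the uncalled Elavl1, Hnrnpa3, Hnrnph1, Hnrnpr, Srsf1, Srsf3 and Srsf10. TMM and median-of-ratios scaling each gave 2 members lower on L-SFMA in place of 1. Of all genes tested, 1563 and 1615 were lower there under these scalings, in place of 1371. The members' median on NL-SFMA against SFMA was 0.024 under median-of-ratios scaling, and against L-SFMA it was -0.081 under TMM scaling, -0.043 under median-of-ratios scaling and -0.061 without the length trend, in place of -0.18; the cause was not tested. Of the counts and medians over all 48 members, the others stayed within 1.5 times and within 0.074 of the value given, under the alternatives run. Counts and medians by role were recomputed without the length trend alone and moved by more, as given with each role. Srsf9, Srsf10, Srsf12, Elavl1, Mbnl1, Mbnl2, Nova1 and Rbfox1 rest on fewer than 1000 reads in each library, which limits their precision most.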
